A study of Homo sapiens with 4 samples.

Results

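The genes described here are 10 early response genes linked to serum response factor: the factor gene SRF itself, EGR1, EGR2, EGR3, NR4A1, IER2, IER3, IER5, ZFP36 and BTG2. They were taken by symbol from the rows that carry an Ensembl gene identifier, 10 of 53777 such rows, and each symbol had 1 row. The set was proposed with the values of these same libraries known, so levels and differences of the 10 genes are given as a description, with no test. RNA was sequenced from NUGC3, a line established from a human gastric cancer, transfected with short hairpins against NIPBL, the gene of the factor that loads cohesin onto chromosomes, or with a scramble hairpin. The 4 libraries are NIPBL knockdown with hairpin 1, NIPBL knockdown with hairpin 7, and scramble 1 and 2. All 4 labels carry the letters DOX, which they do not explain, and scramble 2 is labelled like scramble 1 plus the letters R1, possibly a repeat of the same culture. Separate cultures are not stated for the scramble libraries, so their spread, and the p-values that rest in part on it, may be technical. The knockdown libraries carry different hairpins, so their spread includes any difference between the hairpins.

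Early response genes are transcribed within minutes of a growth factor or stress signal, without new protein synthesis. In the best known route, the ERK kinase cascade phosphorylates ternary complex factors such as ELK1, which sit with SRF on a DNA element called the CArG box; a second set of SRF partners, the MRTF proteins, responds to actin. EGR and NR4A proteins are transcription factors that carry the signal to later genes, while ZFP36 and BTG2 promote the shortening of messenger RNA tails, and many early transcripts are themselves short-lived.

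Values are the authors' FPKM, fragments scaled to transcript length and to the size of the library, so levels can be set beside each other between genes. Summed FPKM ranged over the libraries from 682076 to 749446, and depth in reads is unknown. NIPBL was at 7.27 FPKM with hairpin 1 and 9.17 FPKM with hairpin 7, against 23.92 and 23.11 FPKM in the scramble libraries, and it fell to 35.0% of the scramble mean (log2 change -1.42 ± 0.14, SE, limma, adjusted p = 0.0218). Epithelial markers (EPCAM, CDH1, KRT8, KRT18 and KRT19) summed to 4080 and 5040 FPKM in the knockdown libraries, against 5040 and 5100 FPKM in the scramble libraries. The sum hides moves both ways: the knockdown mean was higher for KRT19 and CDH1 and lower for EPCAM, KRT8 and KRT18. Of the markers of other cell types with a row, 5 of 6 fibroblast, 4 of 5 immune and 3 of 3 endothelial genes stayed under 1 FPKM in every library; COL1A1 and the macrophage and lysosome gene CD68 were the exceptions. Summed immune markers were 32.5 and 38 FPKM in knockdown libraries, against 13.3 and 17.9 FPKM in scramble libraries, nearly all of it CD68, while PTPRC, the pan-leukocyte marker, was at 0 in all 4. Fibroblast markers summed to 9.59 and 7.37 FPKM, against 6.57 and 5.76 FPKM, with COL1A2 and COL3A1 at 0. The share of FPKM in mitochondrially encoded genes was 11.4% with hairpin 1 and 8.56% with hairpin 7, against 9.62% and 8.99% in the scramble libraries. Over the tested genes, the log2 difference had an SD of 0.451 between the hairpins and 0.282 between the scramble libraries.

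The 10 genes showed no common direction. With NIPBL knocked down, EGR1 was at 24.9% of its scramble mean, NR4A1 and ZFP36 were higher with both hairpins, SRF was level in all 4 libraries, and IER3 and IER5 lay above both scramble libraries with hairpin 1 and below them with hairpin 7. EGR2 and EGR3 were under 1 FPKM in every library. Since these are bulk samples, fewer cells making a transcript and less of it per cell cannot be told apart.

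**Figure D1:**
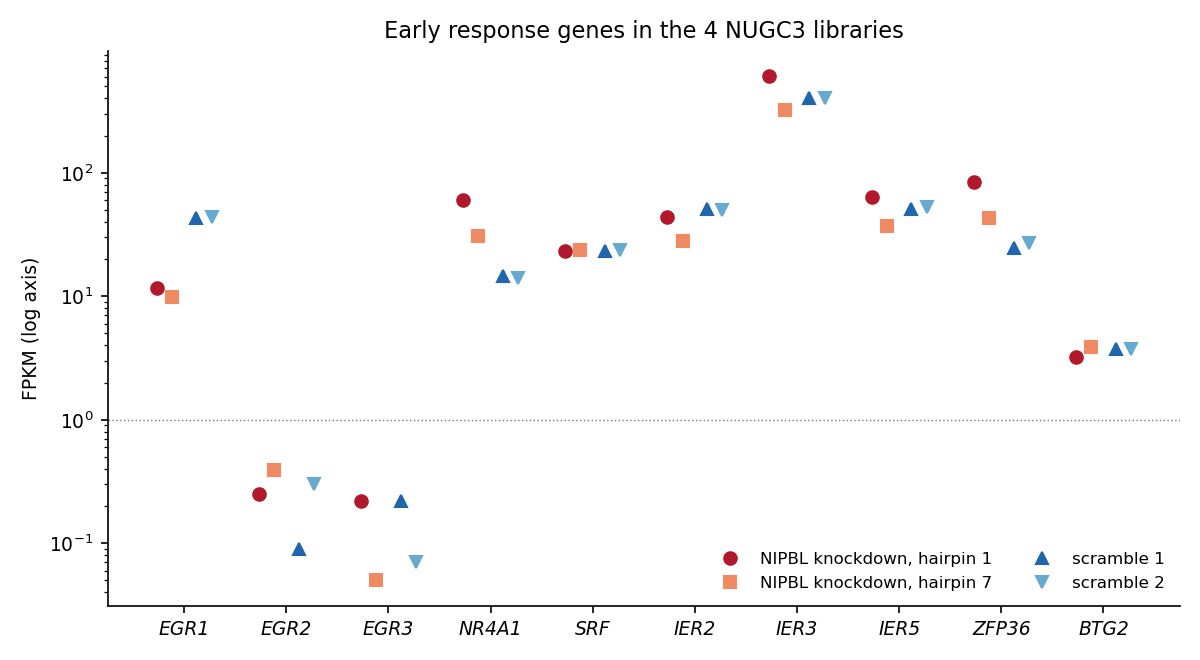
FPKM (log axis) of the 10 genes, 1 point per library, NIPBL knockdown libraries in red and orange and scramble libraries in blue. EGR1 is near 10 FPKM in the knockdown libraries and near 43 in the scramble libraries, NR4A1 and ZFP36 are higher in the knockdown libraries, SRF is level, and EGR2 and EGR3 lie under the dotted line at 1 FPKM.

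SRF (ENSG00000112658, chromosome 6 in GENCODE 29), which encodes the factor that binds CArG boxes and also lies under its own control, was the steadiest of the 10. It was at 23.43 FPKM with hairpin 1 and 23.71 FPKM with hairpin 7, against 23.43 and 23.86 FPKM in the scramble libraries. The groups overlapped, and the means were 23.6 ± 0.198 FPKM in knockdown and 23.6 ± 0.304 FPKM in scramble libraries (SD, n = 2 each). The log2 difference between the hairpins, 0.02, was exceeded in size by 95.7% of the genes tested.

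EGR1 (ENSG00000120738, chromosome 5), a zinc finger transcription factor and the best known target of SRF and ELK1, was the member with the lowest change. It was at 11.71 FPKM with hairpin 1 and 9.81 FPKM with hairpin 7, against 42.8 and 43.67 FPKM in the scramble libraries. Both knockdown libraries were far below both scramble libraries. The log2 gap between the hairpins, -0.23, was ordinary in size, exceeded by 48.7% of the genes tested. The mean was 10.8 ± 1.34 FPKM in knockdown and 43.2 ± 0.615 FPKM in scramble libraries (SD, n = 2 each), or 24.9% of scramble, with a log2 change of -1.92. Among all genes tested 0.203% had a lower change. In scramble libraries the EGR1 level was 1.83 times that of SRF in both, while in knockdown libraries the ratio was 0.5 with hairpin 1 and 0.414 with hairpin 7.

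Promoter windows running from 250 bases before to 50 bases after the annotated start (RefSeq, GRCh38.p14) were found for 8 of the 10 genes, 12 windows in all. They are shown for EGR1, which was lower in knockdown libraries, and SRF, which was level, as each carries a pair of CArG boxes. The window of ZFP36, which was higher, is shown beside them. These genes were picked with their values known, and any part of the boxes in those values was not tested. Capitals mark CArG boxes in the first and second sequence and GGGCGG on either strand in the third.
EGR1 promoter, chr5:138465229-138465528, plus strand: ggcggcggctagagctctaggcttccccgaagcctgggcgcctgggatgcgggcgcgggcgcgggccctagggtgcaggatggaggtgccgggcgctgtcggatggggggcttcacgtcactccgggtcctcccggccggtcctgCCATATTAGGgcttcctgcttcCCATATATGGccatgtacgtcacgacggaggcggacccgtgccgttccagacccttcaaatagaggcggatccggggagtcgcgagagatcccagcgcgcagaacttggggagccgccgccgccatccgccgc
SRF promoter, chr6:43171019-43171318, plus strand: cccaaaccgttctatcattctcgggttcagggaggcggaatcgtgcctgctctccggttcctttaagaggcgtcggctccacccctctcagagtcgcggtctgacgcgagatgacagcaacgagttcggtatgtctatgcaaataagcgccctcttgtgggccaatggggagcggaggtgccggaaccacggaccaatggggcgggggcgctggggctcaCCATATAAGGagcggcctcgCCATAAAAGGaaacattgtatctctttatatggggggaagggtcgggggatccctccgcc
ZFP36 promoter, chr19:39406597-39406896, plus strand: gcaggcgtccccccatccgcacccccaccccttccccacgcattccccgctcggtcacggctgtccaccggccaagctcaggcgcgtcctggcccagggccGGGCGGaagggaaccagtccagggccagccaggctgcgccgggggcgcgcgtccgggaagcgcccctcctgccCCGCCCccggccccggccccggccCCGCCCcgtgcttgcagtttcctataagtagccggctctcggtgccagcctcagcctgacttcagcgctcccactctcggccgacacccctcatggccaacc

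The CArG boxes of EGR1 were CCATATTAGG and CCATATATGG, whose first bases lay 105 and 83 bases before the start. Those of SRF were CCATATAAGG and CCATAAAAGG, at 30 and 10 bases before it. EGR2 had 1, CCATATATGG, at 71 bases before the start in 1 of its 3 windows. Searched on both strands, the CArG box was in 3 of the 12 windows, 1 window in each of 3 genes. Of all 35116 promoter windows of this length, those on chromosome 8 included, 1.29% had it. The genes were put together as linked to SRF, so a higher share follows from that choice and nothing is read from it. The genes with the motif were a lower one, a level one and one under 1 FPKM, and a link between motif and level was not tested.

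Other short motifs were common among all windows. TGACG, the core of the cyclic AMP response element, was in windows of EGR1, EGR2, IER2, SRF and BTG2 and in 24.6% of all windows. CCGGAA, bound by the ETS family to which ELK1 belongs, was in windows of IER2, IER5, NR4A1 and SRF and in 17.2% of all. GGGCGG was in 45% of all windows, and GCGGGGGCG, a sequence bound by EGR1, in 5.07% of all and in those of SRF and BTG2, where it overlaps a GGGCGG. In windows of protein-coding genes tested the shares were higher: 32.3% for TGACG, 28.1% for CCGGAA, 66.9% for GGGCGG and 7.97% for GCGGGGGCG. All these shares are per window, and some members have several windows. These are matches of letters in a window, and binding was not measured here.

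EGR2 and EGR3, relatives of EGR1 with a nearly identical DNA-binding domain, were at 0.39 FPKM or less in every library. EGR2 (ENSG00000122877, chromosome 10) was at 0.25 FPKM with hairpin 1 and 0.39 FPKM with hairpin 7, against 0.09 and 0.3 FPKM in the scramble libraries. EGR3 (ENSG00000179388, chromosome 8) was at 0.22 and 0.05 FPKM in knockdown libraries, against 0.22 and 0.07 FPKM in scramble libraries. Both pairs of groups overlapped, and neither gene passed the filter of a mean of at least 1 FPKM, so they were not fitted.

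NR4A1 (ENSG00000123358, chromosome 12), which encodes the orphan nuclear receptor Nur77, was higher with both hairpins. It was at 60.31 FPKM with hairpin 1 and 30.9 FPKM with hairpin 7, against 14.49 and 14.13 FPKM in the scramble libraries. The groups did not overlap, and the hairpins differed more from each other than the scramble libraries did. NR4A1 averaged 45.6 ± 20.8 FPKM in knockdown and 14.3 ± 0.255 FPKM in scramble libraries (SD, n = 2 each), a ratio of 3.19 (4.22 with hairpin 1, 2.16 with hairpin 7), and a log2 change of 1.53. EGR1 was below NR4A1 in both knockdown libraries and above it in both scramble libraries: the ratio of EGR1 to NR4A1 was 0.194 with hairpin 1 and 0.317 with hairpin 7, against 2.95 and 3.09 in the scramble libraries.

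The IER genes, early transcripts whose names record that they respond immediately, differed more between the hairpins than between the group means. IER3 (ENSG00000137331, chromosome 6), which encodes a stress-inducible regulator of cell survival, was the most abundant of the 10, above 98.4% of the genes tested in the scramble mean. It was at 607.57 FPKM with hairpin 1 and 324.72 FPKM with hairpin 7, against 403.63 and 403.95 FPKM in the scramble libraries. Hairpin 1 was above both scramble libraries and hairpin 7 below both. The knockdown mean was 1.15 times the scramble mean, a value that describes neither hairpin: the log2 change of 0.14 averages 0.59 with hairpin 1 and -0.31 with hairpin 7.

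IER5 (ENSG00000162783, chromosome 1), whose protein takes part in activating heat shock factor 1, had the same form. It was at 63.26 FPKM with hairpin 1 and 37.01 FPKM with hairpin 7, against 50.97 and 52.55 FPKM in the scramble libraries, with log2 changes of 0.28 and -0.47 for the hairpins. IER2 (ENSG00000160888, chromosome 19), a nuclear protein gene, was at 44.06 FPKM with hairpin 1 and 27.86 FPKM with hairpin 7, against 50.43 and 49.49 FPKM in the scramble libraries. Here both hairpins were below both scramble libraries, hairpin 1 by little. IER2 averaged 35.96 ± 11.5 FPKM in knockdown and 49.96 ± 0.665 FPKM in scramble libraries (SD, n = 2 each), 72.0% of scramble, with a log2 change of -0.50.

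ZFP36 (ENSG00000128016, chromosome 19) encodes tristetraprolin, which binds AU-rich elements and marks transcripts for decay. It was at 84.02 FPKM with hairpin 1 and 43 FPKM with hairpin 7, against 24.59 and 26.82 FPKM in the scramble libraries. As with NR4A1, the groups did not overlap and hairpin 1 was the higher. ZFP36 averaged 63.5 ± 29.01 FPKM in knockdown and 25.7 ± 1.58 FPKM in scramble libraries (SD, n = 2 each), a ratio of 2.47 (3.27 with hairpin 1, 1.67 with hairpin 7), and a log2 change of 1.20. The ratio of NR4A1 to ZFP36 was 0.718 with hairpin 1 and 0.719 with hairpin 7, against 0.589 and 0.527 in the scramble libraries, nearly the same with both hairpins. That of ZFP36 to SRF was 3.59 with hairpin 1 and 1.81 with hairpin 7. Each hairpin is 1 library, and whether NR4A1 and ZFP36 move together was not tested.

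BTG2 (ENSG00000159388, chromosome 1), an antiproliferative gene whose protein binds the CCR4-NOT deadenylase, was low and nearly level. It was at 3.21 FPKM with hairpin 1 and 3.86 FPKM with hairpin 7, against 3.76 and 3.77 FPKM in the scramble libraries. Hairpin 1 was below and hairpin 7 just above both scramble libraries. The means were 3.54 ± 0.460 FPKM in knockdown and 3.77 ± 0.00707 FPKM in scramble libraries (SD, n = 2 each), with a log2 change of -0.08.

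The 8 genes above 1 FPKM kept the same order of level in both knockdown libraries, and another order in both scramble libraries. IER3 was the highest and BTG2 the lowest of them in all 4. EGR1 was number 7 in both knockdown libraries and number 4 in both scramble libraries, NR4A1 number 4 against 7, and ZFP36 number 2 against 5. Some neighbours in this order were close: IER2, IER5 and NR4A1 overlapped over the knockdown libraries, and in the scramble libraries IER5 exceeded IER2 by a small margin in each.

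In all, 12834 genes reached the filter of 1 FPKM on average and were fitted with limma on log2(FPKM + 1). At an adjusted p under 0.05, 2.56% of them were called, 1.45% higher and 1.11% lower in knockdown libraries, and 26.4% had an unadjusted p under 0.05. Of the 8 members fitted, 0 were called higher and 1, EGR1, lower (3 of 8 at an unadjusted p under 0.05 in limma); the set was chosen on this contrast, so nothing is read from that count. The groups did not overlap in 4 of the 8 members, 2 higher and 2 lower in knockdown, against 60.3% of all genes tested, 29.5% higher and 30.8% lower. The calls rest on both scramble libraries: without scramble 1 or without scramble 2 limma called 0 genes in the whole table (1060 and 1052 at an unadjusted p under 0.05), so each call named here, EGR1 and NIPBL included, was lost there. They were also lost with the scramble libraries averaged (0 genes called, 975 at an unadjusted p under 0.05) and, but for ATF3, with no filter on low values. Without the hairpin 1 library it called 4532 genes, 6 of them members, and without the hairpin 7 library 2915, 5 of them members.

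With hairpin 1, 3 of 8 members lay at least 1.5-fold above the scramble mean (7.89% of all genes) and 1 at least 1.5-fold below it (5.98%). With hairpin 7 it was 2 above (10.1% of all genes) and 2 below (8.35%).

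**Figure D2:**
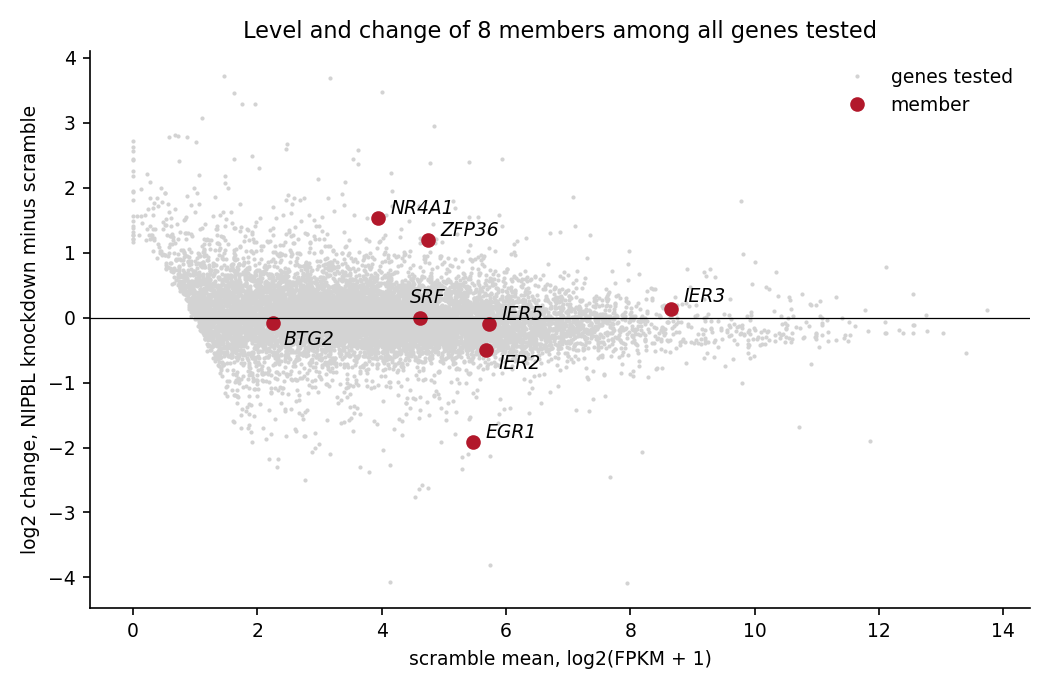
Each gene tested as a grey point, by its scramble mean as log2(FPKM + 1) and its log2 change (NIPBL knockdown minus scramble), with the 8 fitted members in red. EGR1 lies at -1.92, NR4A1 and ZFP36 at 1.53 and 1.20, and the other 5 between -0.50 and 0.14.

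The hairpins differed widely for most of these genes. Of the 8 members 6 were higher with hairpin 1 than with hairpin 7, and 53.9% of all genes tested were. The log2 of hairpin 7 minus hairpin 1 was -0.95 for ZFP36, -0.94 for NR4A1, -0.90 for IER3, -0.76 for IER5 and -0.64 for IER2, and gaps of that size or more were seen in between 3.55% and 9.34% of the genes tested. EGR1 had a gap of -0.23, exceeded in size by 48.7% of them, and BTG2 one of 0.21, exceeded by 53.6%. The hairpins lay outside both scramble libraries on opposite sides for IER3, IER5 and BTG2, 3 of the 8 members, against 19% of all genes tested. Each hairpin is 1 library, so whether these gaps would repeat was not tested, nor was the part of the summed FPKM and mitochondrial share, both larger with hairpin 1; a difference between hairpins cannot be told apart from one between libraries.

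**Figure D3:**
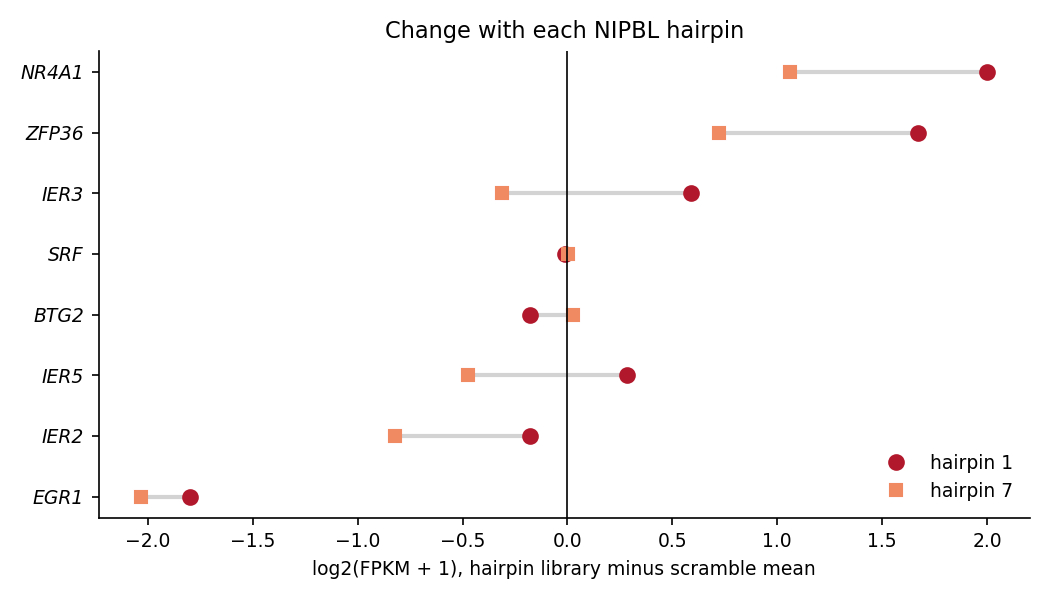
Log2(FPKM + 1) of each hairpin library minus the scramble mean for the 8 fitted members, hairpin 1 as circles and hairpin 7 as squares, ordered by their mean. The points of EGR1 are close together near -2, those of NR4A1 and ZFP36 are apart on the positive side, and those of IER3 and IER5 lie on either side of 0.

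The median of the members' centred profiles was 0.20 with hairpin 1 and -0.19 with hairpin 7, against 0.008 and 0.027 in the scramble libraries, on the log2 scale. Among the protein-coding genes closest to it over the 4 libraries were HMGN2, ATP2B1, HAGH and LSG1, at root mean square distances between 0.012 and 0.016. The members themselves lay between 0.137 (IER5) and 0.954 (EGR1) from their own median profile, so that profile describes none of them closely.

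Relatives of the members gave the clearest calls in the NR4A and BTG families. These and the next lists were chosen with earlier results of these data known, and their genes were tested in the same fit. Of 10 relatives 8 were tested, of which 2 rose and 0 fell. Among all genes tested 1.45% were called higher and 1.11% lower. The relatives had 37.5% at an unadjusted p under 0.05 (limma), against 26.4% of all genes tested. Their median log2 change was 0.03, against -0.01 for all genes tested. NR4A2, a nuclear receptor of the same family as NR4A1, was at 41.52 and 28.7 FPKM in knockdown libraries, against 4.43 and 4.69 FPKM in scramble libraries, and rose 7.70-fold (log2 change 2.68 ± 0.19, SE, limma, adjusted p = 0.0135). BTG1, an antiproliferative relative of BTG2, was at 49.28 and 42.57 FPKM in knockdown libraries, against 18.16 and 19.21 FPKM in scramble libraries, and rose 2.46-fold (log2 change 1.25 ± 0.11, SE, limma, adjusted p = 0.0217). IER5L, the relative of IER5, had a log2 change of -0.76 (limma, adjusted p = 0.0644) and ZFP36L2 one of -0.22 (adjusted p = 0.304), and neither passed. NR4A3, named after its values were seen, was at 0.67 and 0.61 FPKM in knockdown libraries against 0.03 and 0.04 FPKM in scramble libraries, too low to be tested, and EGR4 was listed at 0 in all 4. The calls of NR4A2 and BTG1 were lost without either scramble library.

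Of 30 other early response genes 28 were tested, of which 8 rose, 3 fell and 17 did not pass, while the median log2 change was -0.05. Among all genes tested 1.45% were called higher and 1.11% lower. At an unadjusted p under 0.05 (limma) this list had 67.9%, against 26.4% of all genes tested. The changes went both ways, which the median does not show. ATF3, a stress-induced factor, was at 175.82 and 179.46 FPKM in knockdown libraries, against 14.77 and 15.36 FPKM in scramble libraries (limma, adjusted p = 0.00358). FOS, an AP-1 subunit and like EGR1 a textbook SRF target, was at 338.58 and 325.66 FPKM in knockdown libraries, against 62.53 and 57.49 FPKM in scramble libraries (log2 change 2.45 ± 0.10, SE, limma, adjusted p = 0.00609). FOS rose 5.53-fold. DUSP1, a MAP kinase phosphatase, rose 8.02-fold (limma, adjusted p = 0.00536) and the factor gene KLF4 4.62-fold (adjusted p = 0.00718). The 3 that fell, named after their values were seen, were GADD45B, a growth arrest gene (log2 change -1.81), the kinase gene PLK2 (-0.86) and the matricellular gene CCN1, listed as CYR61 in the deposited table (-0.78), at adjusted p of 0.0112, 0.0409 and 0.0334 (limma). Without a mean trend in the fit, PLK2 (adjusted p = 0.0622) and CCN1 (adjusted p = 0.0524) were not called, leaving GADD45B. As with EGR1, the calls of this list were lost without either scramble library.

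Actin cytoskeleton genes, the targets of SRF with its MRTF partners, showed no call. Of 20 listed 17 were tested, 0 passed over all genes (3 higher and 3 lower at an unadjusted p under 0.05, limma), and the median log2 change was 0.03. At that unadjusted p the list had 35.3%, against 26.4% of all genes tested. After adjustment 2.56% of all genes tested passed, so nothing is read from the 0 of this list. The focal adhesion gene ZYX was at 50.95 and 49.21 FPKM in knockdown libraries, against 34.8 and 36.96 FPKM in scramble libraries (limma, adjusted p = 0.0728). FHL1 was at 1.03 and 0.92 FPKM, against 2.93 and 3.07 FPKM (adjusted p = 0.0595), FHL2 had a log2 change of 0.64 and the tropomyosin gene TPM4 one of 0.28. The smooth muscle genes CNN1 and MYL9, named after their values were seen, were listed at 0 in all 4 libraries.

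Of 21 SRF cofactors and ERK cascade genes, which act upstream of or with SRF, 20 were tested and 0 passed. Since 2.56% of all genes tested passed, nothing is read from that 0. The list had a median log2 change of -0.02. At an unadjusted p under 0.05 (limma) there was 1 gene, or 5%, against 26.4% of all genes tested. Without the hairpin 1 library 4 were called. The ternary complex factor gene ELK4 had a log2 change of -0.41, the SRF partner gene MRTFA of 0.29, the kinase gene RPS6KA4 of 0.31 and MAP2K2, a kinase that activates ERK, of -0.22, at adjusted p between 0.145 and 0.227 (limma). Phosphorylation, through which this cascade acts, was not measured.

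Partners of the EGR, ZFP36 and BTG2 proteins were tested as 12 genes, NAB co-repressors of EGR factors and CCR4-NOT subunits, of which 0 passed (3 lower at an unadjusted p under 0.05, limma). The share at that p, 25%, was near the 26.4% of all genes tested. After adjustment 2.56% of all genes tested passed, so nothing is read from the 0 here. The median log2 change of the 12 was -0.19, and 10 of them were negative, 83.3% against 51.7% of all genes tested. CNOT9 had a log2 change of -0.40, CNOT7, a deadenylase, of -0.31, the scaffold gene CNOT1 of -0.31 and the deadenylase gene CNOT6 of -0.29, at adjusted p between 0.145 and 0.217 (limma).

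Among 10 AU-rich transcripts known to be bound by ZFP36, 3 rose and 0 fell, with a median log2 change of 0.45 (0.75 with hairpin 1, 0.11 with hairpin 7). Over all genes tested 1.45% were called higher and 1.11% lower. At an unadjusted p under 0.05 (limma) the list had 50%, against 26.4% of all genes tested. The chemokine gene CXCL2 rose 2.69-fold, the cytokine gene IL6 3.15-fold and PTGS2, the inducible cyclooxygenase gene, 5.37-fold (limma, adjusted p = 0.0189, 0.0303 and 0.0311). CXCL8 was at 861.86 and 759.94 FPKM in knockdown libraries, against 473.57 and 483.84 FPKM in scramble libraries (adjusted p = 0.0518), and did not pass. IL1B, a cytokine gene named after its values were seen, was at 552.26 and 351.88 FPKM in knockdown libraries, against 884.02 and 893.88 FPKM in scramble libraries (log2 change -1.01, limma, adjusted p = 0.0884), and did not pass either. Of 18 tested p53 targets, the class to which BTG2 belongs, 38.9% had an unadjusted p under 0.05 (limma), against 26.4% of all genes. After adjustment 2 rose and 0 fell, with a median log2 change of 0.05 (over all genes tested 1.45% rose and 1.11% fell). They were the cell cycle inhibitor gene CDKN1A, at 66.8 and 100.96 FPKM in knockdown libraries against 16.01 and 17.67 FPKM in scramble libraries, and TP53I3, at 21.66 and 18.19 FPKM against 5.15 and 4.16 FPKM (limma, adjusted p = 0.0218 and 0.0174). BBC3, at a log2 change of 0.86, and GADD45A, at -0.61, did not pass (limma, adjusted p = 0.0626 and 0.0679). The calls of both lists, too, were lost without either scramble library.

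**Figure D4:**
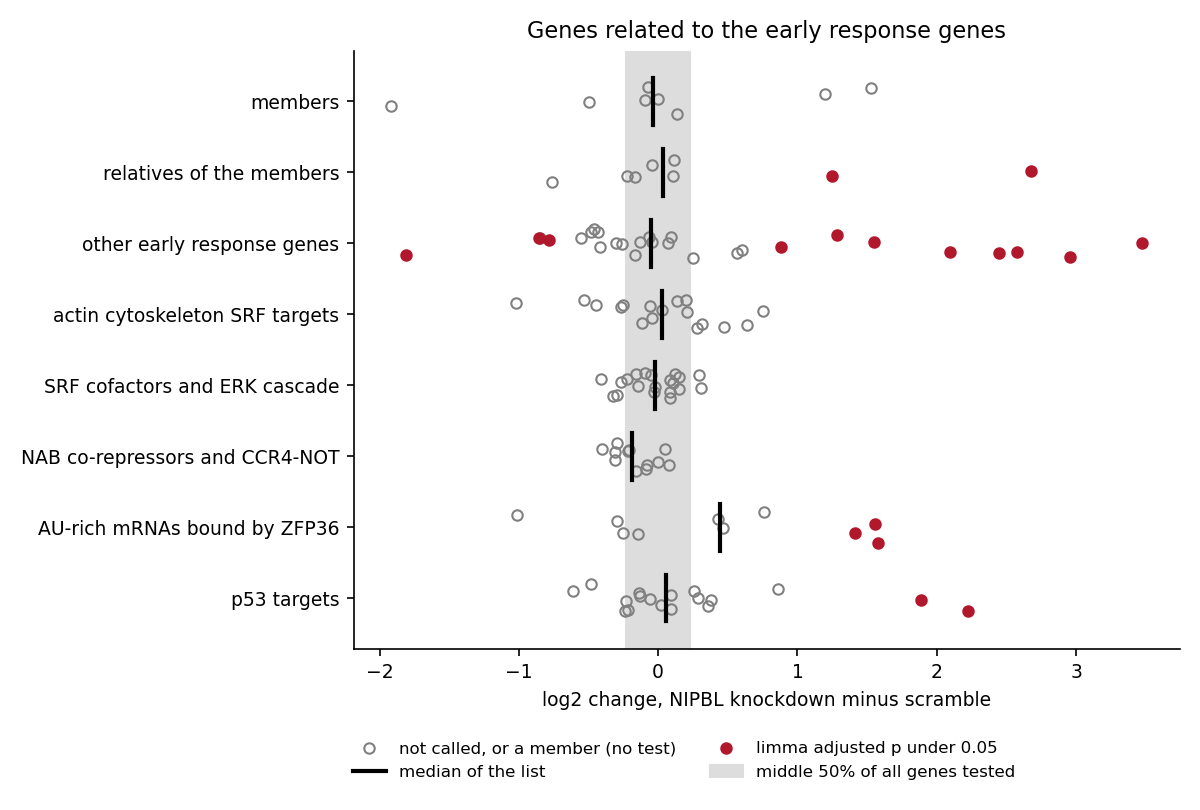
Log2 change (NIPBL knockdown minus scramble) of each tested gene in the members and 7 lists of related genes, with the list median as a black bar and the interquartile range of all genes tested as a grey band. Filled points passed the test at an adjusted p under 0.05; members are drawn open because they were not tested as findings. Calls lie among the relatives, the other early genes, the AU-rich transcripts and the p53 targets, and none among the actin, upstream and partner genes. Of all genes tested 2.56% were called, so nothing is read from the lists with none.

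Most of the members have short genes with few exons. In GENCODE 29 their genes, with EGR2 and EGR3 that were not tested, spanned a median of 4127.5 bases with a median of 2 exons. The medians were 27439 bases and 9 exons for 11313 protein-coding genes tested. IER3 was the shortest, at 1356 bases, with only 0.725% of the tested genes shorter, and IER2 and IER5 had no intron. SRF and NR4A1, with 7 and 8 exons over 10209 and 8105 bases, were the longest of the 10. EGR1 spanned 3826 bases with 2 exons and ZFP36 2600 bases.

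The heptamer TATTTAT, the DNA form of a core that ZFP36 binds in RNA, was in the annotated 3′ untranslated region of 5 of the 10 members, against 33.1% of the tested genes. Among regions between 500 and 1500 bases long it was in 2 of 6 members, IER3 and ZFP36, against 24.6% of 3535 tested genes. The regions of IER5, SRF and BTG2 were longer. EGR2 and EGR3, which were not tested, are among the 10, and EGR2 is among the 6, so the sets compared are not alike. IER3 had 4 copies, IER5 4, ZFP36 3, SRF 2 and BTG2 1, while EGR1, EGR2, EGR3, IER2 and NR4A1 had 0. The first copy in each is shown in 29 bases of the transcript, in capitals, to set the genes with the element beside their values. In the stretch of IER3 a further copy is in capitals too.
IER3 transcript: ctcctaattaaTATTTATatgTATTTATg
IER5 transcript: ccataataatgTATTTATagaattaaaca
ZFP36 transcript: aatgggcccttTATTTATgacgactttat
SRF transcript: atggcaccactTATTTATtgttgcctttt
BTG2 transcript: aaatgaagagcTATTTATatatattattt

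The 5 genes with a copy include ZFP36, which was higher with both hairpins, SRF and BTG2, which were nearly level, and IER3 and IER5, which lay on either side of scramble. The 5 without one include EGR1 and IER2, which were lower, and NR4A1, which was higher. A higher gene stood in each set, and transcript decay was not measured.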

How the data were processed

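The molecule is given as total RNA, per the labels. The authors deposited FPKM per gene with 2 decimals; STAR and RSEM appear in the submitters' processing notes. The genome build, annotation, strand setting, filters and depth were not given in the sources used here. Low FPKM of single-transcript genes, multiplied by annotated length, showed no clear steps of single reads, so no counting intervals are given.

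Of 344810 rows, 53777 carried an Ensembl identifier and were used. Those averaging at least 1 FPKM over the 4 libraries, 12834 in all, entered limma 3.58.1 (R 4.3.3; lmFit, eBayes with a mean trend) as log2(FPKM + 1), 2 knockdown against 2 scramble libraries, two-sided, with Benjamini-Hochberg adjustment. The fit was run on simulated data in which both groups had the same spread. That run does not cover the wider spread between the hairpins than between the scramble libraries. Log2 changes understate low genes; a fold is the ratio of group means in FPKM. With 2 against 2 an exact permutation test reaches p = 0.333 at best and was not run.

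The members and the gene lists were chosen with earlier results of these data known. Named genes are the members, NIPBL, up to 4 genes per list with the smallest p, and the 5 protein-coding genes whose profile lay nearest to the members' median, 1 of which is not reported here; others are marked. List symbols were matched by identifier, so MRTFA, CCN1, CNOT9 and CXCL8 stand under older symbols in the table. RSEM shares out reads that fit several genes, so near-identical copies are uncertain; overlapping and antisense genes cannot be separated without strand. Alternatives were the pseudocount, the filter, the scaling, the trend, averaged scramble libraries and leaving out each library.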

Additional observations from a re-analysis of the deposited data

Results flagged for a closer look

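For 3 genes the hairpin libraries lay outside both scramble libraries on opposite sides. The log2 of hairpin 7 minus hairpin 1 was -0.90 for IER3, -0.76 for IER5 and 0.21 for BTG2. Larger gaps were seen in 4.08%, 6.23% and 53.6% of the genes tested, so the gap of BTG2 was ordinary in size. The difference was not tested, since each hairpin is 1 library, and 19% of all genes tested showed this form.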

How the results depend on the processing

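The direction of EGR1, IER2, NR4A1 and ZFP36 held under every alternative run. The log2 change of EGR1 lay between -2.03 and -1.80 with 1 library left out, that of NR4A1 between 1.06 and 2.00, that of ZFP36 between 0.72 and 1.67 and that of IER2 between -0.82 and -0.18. The sign turned for IER3 (-0.31) and BTG2 (0.03) without the hairpin 1 library and for IER5 (0.28) without the hairpin 7 library, while SRF, which stayed between -0.02 and 0.008 with 1 library left out, turned in sign under quantile normalization, median ratio scaling, without the hairpin 1 library and without scramble 2. With no filter on low values limma called 1 gene in all (4275 at an unadjusted p under 0.05), 1 among other early genes and 0 among the members, relatives, AU-rich transcripts and p53 targets. With the scramble libraries averaged it called 0 in each of these and in all genes (975 at an unadjusted p under 0.05). Without a mean trend 1 actin gene was called, and lower calls among other early genes were 1 in place of 3. With 1 library left out the calls ranged from 0 to 4532 for all genes, 0 to 6 for the members, 0 to 5 for relatives, 0 to 4 for SRF cofactors and ERK cascade genes, 0 to 21 for other early genes, 0 to 10 for actin genes, 0 to 4 for NAB and CCR4-NOT genes, 0 to 8 for AU-rich transcripts and 0 to 6 for p53 targets. The lows came without a scramble library and the highs without the hairpin 1 library (for p53 targets also without the hairpin 7 library); a lone library is assumed to vary like the other group. The share of promoter windows with a CArG box was 1.16% before the start only. No paired analysis was possible because the labels give the groups no shared replicate numbers.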
